A study of Chlamydomonas reinhardtii with 9 samples.

Results

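CEHC1 (Cre01.g005900_4532) and CRR1 (Cre09.g390023_4532) are 2 genes of the unicellular green alga Chlamydomonas reinhardtii, taken by name from a table of 17609 gene models. CRR1, the copper response regulator, is a transcription factor with an SBP-type DNA-binding domain. When cells lack copper it turns on genes for copper uptake and for proteins that replace copper enzymes, and it is also needed for part of the response to low oxygen. CEHC1 encodes a protein with a hemerythrin domain, a fold that binds iron and, in some proteins, oxygen. A hemerythrin domain is also found in human FBXL5, a subunit of a ubiquitin ligase that marks its target for degradation. The series title names a gene that controls the level of CRR1, and the question here was how the transcripts of both genes, and of known CRR1 targets, stood in strains with and without functional CEHC1.

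PolyA RNA was sequenced from 3 strains with 3 cultures each. The wild type was strain B6, with wild-type CEHC1, and the mutant was strain B6-F, with the cehc1-1 mutation. B6-F_resc is the rescued strain, described in the series text as carrying a wild-type CEHC1 gene brought in by transformation. Each genotype was represented by 1 strain, and the labels do not describe the lesion of cehc1-1 or the construct used for rescue. All cultures were grown in acetate medium (TAP) with aeration, 200 ml in flasks of 2800 ml, under a cycle of 14 h light and 10 h dark, and were sampled 6 h into the light. No copper-free or oxygen-free culture was among the samples.

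The authors deposited FPKM, which are fragments relative to transcript length and to library size, for each library. No read numbers are stated in the sources used here. Pearson's r between libraries, across the 11360 genes tested, was 0.990 to 0.995 within strains and 0.934 to 0.979 between strains. The FPKM of all genes summed to 592929 to 645234 in the mutant, 970073 to 1108532 in the wild type and 888153 to 1002223 in the rescued strain. How the deposited FPKM were scaled between libraries is not stated, and a different scaling would shift the genes of a library together. Results are therefore also given for rescaled values and for ratios within a library. The rescued libraries further differed at the mating-type locus. MID1, the gene that sets the minus mating type, was listed at 0 in all wild-type and mutant libraries and had 2.46 to 3.29 FPKM in the rescued libraries. FUS1, a gene of the plus mating type, was listed at 0 in all rescued libraries. Its level was also very low elsewhere, with 0.132 to 0.285 FPKM in the wild type and 0.228 to 0.323 FPKM in the mutant. The effects of the added CEHC1 copy and of other differences in strain background in the rescued strain cannot be told apart.

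Transcript of the mutated gene, CEHC1, was present in all 9 libraries and was lowest in the wild type. It stood at 9.10, 7.07 and 9.77 FPKM in wild-type replicates 1, 2 and 3, at 17.4, 18.0 and 16.2 FPKM in the mutant libraries, and at 26.2, 25.4 and 27.9 FPKM in the rescued libraries. The 3 strains did not overlap, with every mutant library above every wild-type library and every rescued library above both. The share of all tested genes whose strains separated in this way is not given here, so separation alone is not read as particular to CEHC1. The strain means were 8.64 ± 1.41, 17.2 ± 0.967 and 26.5 ± 1.31 FPKM (SD, n = 3 each), a ratio of 1.99 for mutant over wild type and 3.06 for rescued strain over wild type. A cehc1-1 transcript level above that of the wild type gives no information on whether a working protein is made. For the rescued strain, the values do not tell the added copy apart from the resident gene.

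Differences between strains were tested with limma on log2(FPKM + 1), with Benjamini-Hochberg adjustment over the 11360 genes. CEHC1 in the mutant exceeded the wild type by 0.93 (SE 0.10, 95% interval 0.69 to 1.16, adjusted p 3.2e-05). An adjusted p under 0.05 was common in this comparison, with 66.2% of tested genes passing and 25.8% passing as higher in the mutant, so size is the more informative measure. The CEHC1 difference lay above that of 94.5% of tested genes, and the median over all of them was -0.13. The rescued strain exceeded the wild type by 1.52 (SE 0.10, 95% interval 1.29 to 1.75, adjusted p 1.0e-05). That difference met both an adjusted p under 0.05 and a log2 difference of at least 1, which 0.634% of tested genes met as higher in the rescued strain, and it lay above that of 99.8% of them. Rescued strain and mutant differed by 0.59 (SE 0.10, adjusted p 0.00077) as deposited, a comparison that passed in 58.1% of tested genes. This last difference kept its direction in 19 of 20 alternative settings, with 0.51 (adjusted p 0.0013) for median ratios. It went to -0.02 (adjusted p 0.888) when each library was rescaled to a sum of 1000000. Whether CEHC1 transcript is higher in the rescued strain than in the mutant thus depends on the scale.

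CRR1 transcript was abundant in all 3 strains, and as deposited its strain means differed by less than those of CEHC1. It stood at 43.2, 47.9 and 40.2 FPKM in wild-type replicates 1, 2 and 3, at 55.6, 58.7 and 63.4 FPKM in the mutant libraries, and at 64.8, 47.8 and 53.5 FPKM in the rescued libraries. All mutant libraries lay above all wild-type libraries, whereas the rescued strain overlapped both of the others, with its replicate 1 highest of all 9 libraries and its replicate 2 just under wild-type replicate 2. The share of all tested genes whose mutant and wild-type libraries separated by FPKM is not given here. The means were 43.8 ± 3.88, 59.2 ± 3.92 and 55.4 ± 8.69 FPKM (SD, n = 3 each), a ratio of 1.35 for mutant over wild type and 1.26 for rescued strain over wild type. The authors' deposited table, with 1 value per strain, gives 43.8, 59.2 and 55.4 FPKM for CRR1 and 8.65, 17.2 and 26.5 FPKM for CEHC1.

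**Figure D1:**
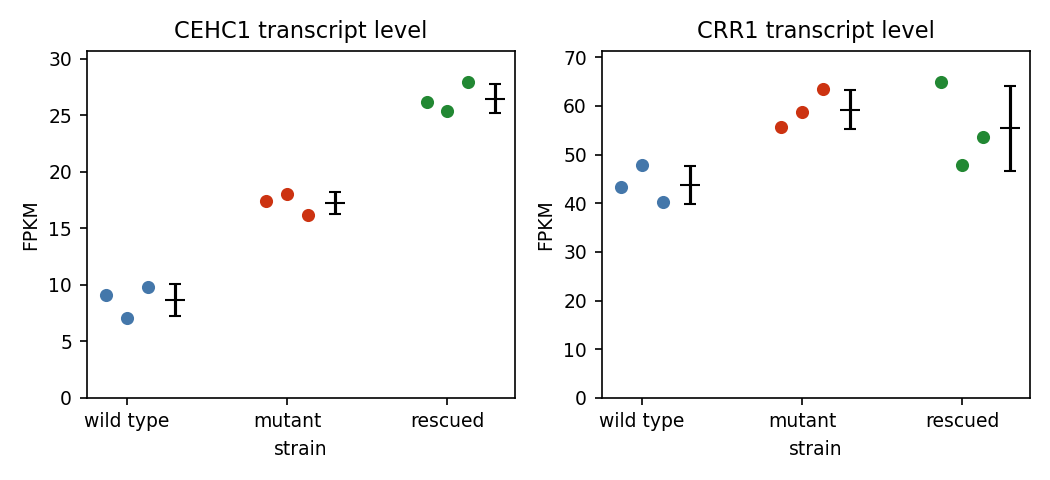
FPKM (linear axes from 0) of CEHC1 and CRR1 in each of the 3 libraries of the wild type, the mutant and the rescued strain. Coloured points are replicates 1 to 3 from left to right, and black bars are the mean ± SD. CEHC1 separates all 3 strains, from 7.07 to 27.9 FPKM, while the rescued libraries of CRR1 spread from 47.8 to 64.8 FPKM and overlap both other strains.

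The mutant exceeded the wild type in CRR1 by 0.43 (SE 0.11, 95% interval 0.18 to 0.68, adjusted p 0.0061, limma). This passed the threshold on p, as did most genes, and 45.6% of tested genes had a larger absolute difference. Among the 3083 genes with a mean of 10 to 100 FPKM, whose median was -0.42, the CRR1 difference lay above 93.6% and the CEHC1 difference above 97.5%. The rescued strain differed from the mutant in CRR1 by -0.10 (SE 0.11, 95% interval -0.35 to 0.14, adjusted p 0.443). The interval includes no difference as well as a fall nearly as large as the rise between wild type and mutant. The rescued strain exceeded the wild type by 0.32 (SE 0.11, 95% interval 0.08 to 0.57, adjusted p 0.041), in a comparison where 40.3% of tested genes passed. That call was lost without wild-type replicate 1 (adjusted p 0.088), wild-type replicate 3 (0.128), mutant replicate 1 (0.053), mutant replicate 2 (0.056), rescued replicate 1 (0.125) or rescued replicate 3 (0.073). Without rescued replicate 1 the difference was 0.21.

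Rank within a library does not depend on how libraries are scaled. CRR1 lay above 86.9% to 89.2% of the tested genes in the wild-type libraries, above 92.5% to 93.2% in the mutant libraries and above 89.6% to 92.1% in the rescued libraries. On this measure the 3 strains did not overlap, with the rescued libraries between the others. How many of all tested genes separated by rank in this way is not given here. CEHC1 lay above 58.0% to 65.1% of tested genes in the wild type, 79.0% to 81.0% in the mutant libraries and 83.3% to 84.3% in the rescued libraries, the same order of strains as its FPKM. The step in rank was larger from wild type to mutant than from mutant to rescued strain.

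The ratio of the 2 transcripts within a library is also free of scaling. CEHC1 reached 21.0%, 14.7% and 24.3% of the CRR1 FPKM in wild-type replicates 1, 2 and 3. The values were 31.3%, 30.7% and 25.5% in the mutant libraries and 40.3%, 53.1% and 52.2% in the rescued libraries. The strains did not overlap, although mutant replicate 3 and wild-type replicate 3 lay close together. Such separation was common. Among 11359 tested genes divided by CRR1 in the same way, mutant and wild type overlapped in only 22.4%. For rescued strain and wild type the share that overlapped was 51.9%. The means were 20.02% ± 4.85, 29.2% ± 3.23 and 48.5% ± 7.13 (SD, n = 3 each). On the log2 scale the ratio was higher by 0.57 in mutant than in wild type, by 0.73 in rescued strain than in mutant and by 1.30 in rescued strain than in wild type. Each of the 3 comparisons gave p = 0.1 in an exact two-sided permutation test, which is the smallest p that 3 against 3 libraries can give, and which adjustment over the 3 leaves at 0.1. The difference of mutant from wild type ranged from 0.36 to 0.72 when 1 library was left out, with the lowest value without wild-type replicate 2.

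**Figure D2:**
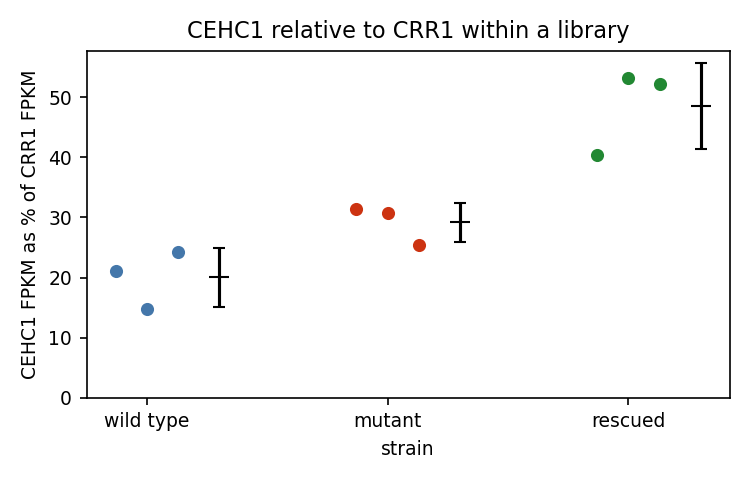
CEHC1 FPKM as a percentage of CRR1 FPKM in the same library (linear axis from 0), for 3 libraries of each strain. Coloured points are replicates 1 to 3 from left to right, and black bars are the mean ± SD. The wild-type libraries reach at most 24.3%, the mutant libraries lie from 25.5% to 31.3% and the rescued libraries from 40.3% to 53.1%.

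Most known targets of CRR1 differed far more between strains than CRR1 transcript itself. The list held 9 genes, of which 8 were matched by symbol and tested, while CGL78 was not matched. In the mutant 7 of the 8 were called higher than in the wild type, at an adjusted p under 0.05 and a log2 difference of at least 1, and none lower. Over all tested genes 4.60% were called higher and 4.80% lower. The median difference of the 8 was 2.74, against -0.13 over all tested genes. In the rescued strain 7 of the 8 were called lower than in the mutant, where 3.77% of all tested genes were, and the median was -2.15. None of the 8 was called between rescued strain and wild type at the minimum difference, where 2.31% of all tested genes were. At so low a share most lists of 8 genes would hold none, so that count says little about the targets. The first 2 comparisons share the mutant libraries, so the 2 counts are not independent.

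CYC6 encodes cytochrome c6, which replaces the copper protein plastocyanin in photosynthetic electron transport. It stood at 0.122, 0.311 and 0.136 FPKM in the wild type, at 502, 537 and 663 FPKM in the mutant libraries, and at 0.223, 0.113 and 0.187 FPKM in the rescued libraries. The mutant was thus the one strain with substantial CYC6 transcript, and the other strains overlapped. FDX5, a ferredoxin gene with little transcript in copper-replete air-grown cells, had 7.76, 8.49 and 6.47 FPKM in the wild type, 1572, 1595 and 2101 FPKM in the mutant libraries and 10.9, 8.20 and 8.77 FPKM in the rescued libraries. The differences of mutant from wild type were 8.89 for CYC6 (SE 0.11, adjusted p 4.9e-12, limma) and 7.67 for FDX5 (SE 0.14, adjusted p 8.3e-11, limma).

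CPX1 and CHL27A act in tetrapyrrole synthesis, as coproporphyrinogen oxidase and as a subunit of the cyclase that makes protochlorophyllide. CPX1 had 225, 169 and 248 FPKM in the wild type, 1127, 1072 and 1573 FPKM in the mutant libraries and 279, 376 and 393 FPKM in the rescued libraries. CHL27A, also known as CRD1, had 155, 136 and 176 FPKM in the wild type, 1068, 1102 and 1454 FPKM in the mutant libraries and 261, 171 and 224 FPKM in the rescued libraries. In both genes the mutant stood clear of the other strains from an already high base, with differences from the wild type of 2.55 (SE 0.19) and 2.94 (SE 0.17). HYDA1, the hydrogenase gene, had 13.5, 11.5 and 10.3 FPKM in the wild type, 100.8, 100.05 and 95.9 FPKM in the mutant libraries and 8.99, 7.39 and 7.24 FPKM in the rescued libraries.

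The copper transporter genes CTR1, CTR2 and CTR3 moved least among the targets. CTR2 had 4.15, 4.73 and 2.98 FPKM in the wild type, 15.1, 14.0 and 16.3 FPKM in the mutant libraries and 7.00, 5.86 and 6.30 FPKM in the rescued libraries. CTR3 had 8.30, 9.03 and 6.72 FPKM in the wild type, 33.8, 38.8 and 39.8 FPKM in the mutant libraries and 12.1, 9.92 and 11.1 FPKM in the rescued libraries. CTR1 had 10.5, 8.67 and 9.91 FPKM in the wild type, 17.0, 14.0 and 19.7 FPKM in the mutant libraries and 10.1, 8.98 and 10.6 FPKM in the rescued libraries. CTR1 was the one target below the minimum difference in the mutant (0.73, SE 0.12, adjusted p 0.00033, limma), although its mutant libraries did not overlap the others. How many of all tested genes separated in this way is not given here, so separation alone is not read as particular to the targets.

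**Figure D3:**
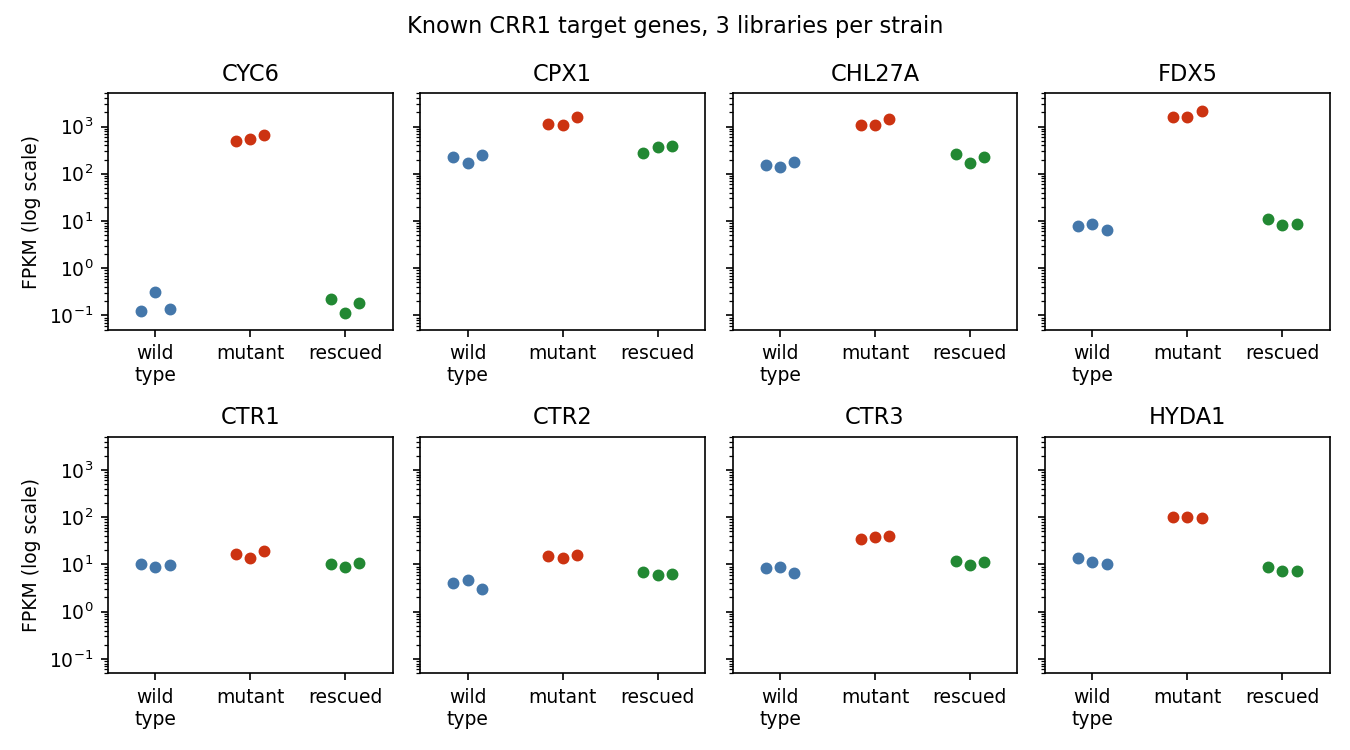
FPKM (log axis) of the 8 matched CRR1 target genes in 3 libraries of each strain, replicates 1 to 3 from left to right. In each gene the mutant libraries lie above all others, from CTR1, with mutant values of 14.0 to 19.7 FPKM, to CYC6, which goes from under 1 FPKM to 502 to 663 FPKM. The share of all tested genes with such separation is not given here.

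Per unit of CRR1 transcript, the rescued libraries overlapped the wild-type libraries in 6 of the 8 targets, and in 51.9% of all tested genes. FDX5 FPKM divided by CRR1 FPKM was 0.161 to 0.179 in the wild type, 27.2 to 33.1 in the mutant libraries and 0.164 to 0.172 in the rescued libraries, so the rescued values lay inside the wild-type range. For CHL27A the ratio was 2.84 to 4.37 in the wild type, 18.8 to 22.9 in the mutant libraries and 3.57 to 4.18 in the rescued libraries. CTR2 differed, with 0.108 to 0.123 in the rescued strain above the 0.0740 to 0.0988 of the wild type. HYDA1 differed in the other direction, with 0.135 to 0.155 in the rescued strain below the 0.240 to 0.313 of the wild type. Between mutant and wild type the mean ratio changed by 1.28-fold for CTR1, whose strains overlapped, and by 2.85-fold (CTR2) to 2256-fold (CYC6) for the other 7.

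Differences between rescued strain and wild type that lay below the minimum difference remained in the target list. At an adjusted p under 0.05 and with no minimum difference, 4 of the 8 were higher in the rescued strain, where 18.5% of all tested genes were, and 1 was lower, where 21.8% were. CPX1 was higher by 0.71 (SE 0.19, adjusted p 0.013, limma), CTR2 by 0.59 (SE 0.13, adjusted p 0.0050), CTR3 by 0.42 (SE 0.11, adjusted p 0.013) and CHL27A by 0.47 (SE 0.17, adjusted p 0.045). HYDA1 was the lower one, with a difference of -0.52 (SE 0.10, adjusted p 0.0036). Of all tested genes, 6.62% had a larger absolute difference than CPX1 in this comparison, 10.6% than CTR2, 14.3% than HYDA1, 17.7% than CHL27A and 21.9% than CTR3. FDX5 (0.26, 95% interval -0.05 to 0.57) and CTR1 (0.03) did not pass. CYC6 did not pass either, but it was under 1 FPKM in all libraries of both strains and was tested through its mutant level, so log2(FPKM + 1) could show little difference between them. The CHL27A call was lost in 8 of 20 alternatives, with adjusted p-values up to 0.148, and those of CPX1, CTR2, CTR3 and HYDA1 in none of the 20. CRR1 itself was higher in the rescued strain than in the wild type by 0.32, as given above.

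Of 8 other genes that handle copper, all matched and tested, none was called higher in the mutant, where 4.60% of all tested genes were, and 2 were called lower, where 4.80% were. Their median difference was -0.51 as deposited, and several of them changed with the scale. CHL27B, also known as CTH1, encodes the form of the cyclase subunit that prevails in copper-replete cells. It had 1598, 1376 and 1610 FPKM in the wild type, 498, 442 and 516 FPKM in the mutant libraries and 1569, 1755 and 1825 FPKM in the rescued libraries, opposite in direction to CHL27A. The 2 forms are related genes, as are HYDA1 and HYDA2, and how shared reads were assigned is not stated in the labels. Its difference of mutant from wild type was -1.65 (SE 0.10, adjusted p 7.9e-07, limma) as deposited and -0.90 to -1.51 under the 3 rescalings, with an adjusted p under 0.05 in each. The value of -0.90 was below the minimum difference, so CHL27B was not called on every scale. PCY1, the plastocyanin gene, had 17149, 15421 and 18604 FPKM in the wild type, 7586, 7410 and 8386 FPKM in the mutant libraries and 13891, 15732 and 15474 FPKM in the rescued libraries. Its difference of -1.13 became -0.98 with median ratios and -0.37 when libraries were rescaled to a sum of 1000000. On both of these scales PCY1 was below the minimum difference, so the count of 2 called lower holds only as deposited. Quantile normalization gave 0.00, but that value was fixed in advance and carries no information on PCY1. The gene held the same rank in every library, and this method gives genes of equal rank the same value.

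The other members of that list lay below the minimum difference in the mutant. ATX1, a copper chaperone, had a difference of -0.84 from the wild type and PCC1 one of -0.71. Over 20 alternatives the ATX1 difference was as small as -0.08, and it missed the threshold on p in 1 of them (adjusted p 0.370, limma). The copper-transporting ATPase genes CTP1, CTP2 and CTP3 had differences of 0.40, -0.31 and 0.62. COX17, a copper chaperone for cytochrome oxidase, had one of 0.08 (adjusted p 0.684), which became 0.70 (adjusted p 0.0016) with quantile normalization and 0.83 (adjusted p 2.0e-04) with sums of 1000000. With libraries rescaled to a sum of 1000000, CTP2 turned to 0.32 and PCC1 to 0.02.

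Regulators of other nutrient responses were examined as a comparison for the transcript of CRR1. Of 5 genes, 4 were tested, while NRR1, a regulator of the response to nitrogen starvation, was below the minimum level with 0.0675 to 0.230 FPKM in the mutant. CCM1, also known as CIA5, is needed for the response to low carbon dioxide. It had 5.15, 6.15 and 4.39 FPKM in the wild type, 9.74, 9.13 and 10.3 FPKM in the mutant libraries and 11.9, 9.07 and 9.31 FPKM in the rescued libraries. Like CRR1, CCM1 was higher than the wild type in the mutant (0.79, SE 0.12, adjusted p 0.00023, limma) and in the rescued strain (0.83, SE 0.12, adjusted p 0.00075). NIT2, the regulator of nitrate assimilation, had a higher level in the mutant, by 0.58 (SE 0.09), and LCR1, a MYB factor of the low carbon dioxide response, was called lower, with a difference of -1.04 (SE 0.14, adjusted p 1.0e-04). With median ratios LCR1 stood at -0.92, below the minimum difference, so that call depended on the scale. Its difference ranged from -1.28 to -0.46 over the 19 alternatives in which it was tested. PSR1, the regulator of phosphorus starvation, had a difference of -0.08 (adjusted p 0.394), which turned to 0.48 when libraries were rescaled to a sum of 1000000. A rise of the size seen in CRR1 was therefore not limited to the copper regulator among these genes.

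**Figure D4:**
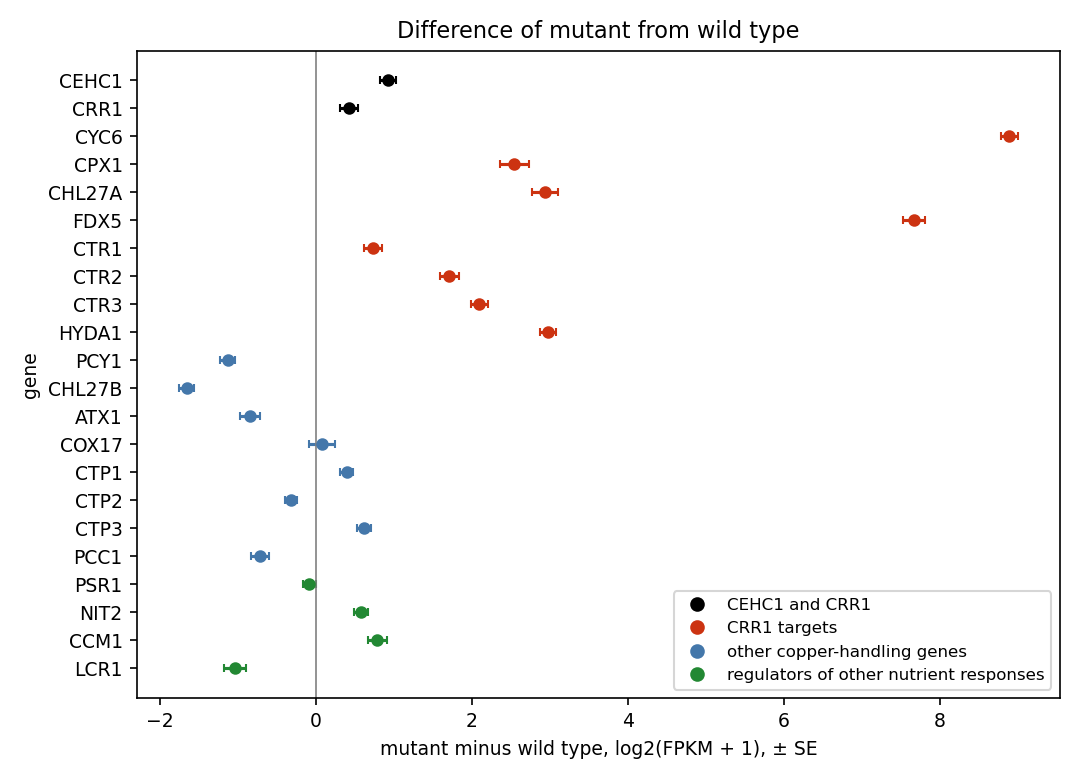
Difference of mutant from wild type on the log2(FPKM + 1) scale (horizontal axis, points with SE from limma) for CEHC1, CRR1 and the tested members of the 3 lists (vertical axis). CRR1 lies at 0.43, the 8 target genes lie from 0.73 (CTR1) to 8.89 (CYC6), and the other copper-handling genes lie from -1.65 (CHL27B) to 0.62 (CTP3).

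The genes with the most similar profiles were found by the root mean square difference between log2(FPKM + 1) values centred on each gene's own mean over the 9 libraries. Among 3534 genes with a symbol, those nearest to CEHC1 were GFY1 (0.26), SSS3B (0.30), EIF5B2 (0.31), METH1 (0.31) and PHC24 (0.31). These distances exceeded the spread of CEHC1 around its own strain means, which was 0.11, so no named gene followed it within replicate error. GFY1 went from 11.4 ± 0.282 FPKM in the wild type to 15.6 ± 0.963 in the mutant libraries and 25.2 ± 3.13 in the rescued libraries, a smaller first step and a like second step. For CRR1 the nearest were SNRK2N (0.08), PAP10 (0.08), HKR4 (0.08), ALG11 (0.09) and RWP2 (0.09), all closer than the spread of CRR1 around its strain means, 0.13. Of 3533 genes compared, 15 lay within 0.1 of CRR1. Closeness on this scale is not an equal fold for genes of low FPKM. SNRK2N, with a wild-type mean of 0.805 FPKM and a mutant mean of 1.61 FPKM, had a ratio of mutant to wild type of 2.00 against 1.35 for CRR1. Both sets of nearest genes depended on the settings. None of the 5 for CRR1 was among its nearest 5 after quantile normalization, with sums of 1000000, with a pseudocount of 5 or without rescued replicate 1. Of the 5 for CEHC1, 1 was with a pseudocount of 0.1 and 2 were without rescued replicate 3. CEHC1 and CRR1 lay 0.53 apart. Of the other 11359 tested genes, 1086 lay nearer to CEHC1 than CRR1 did, and 9568 lay nearer to CRR1 than CEHC1 did.

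Since the FPKM totals differed between strains, both genes were also compared after 3 rescalings. For CEHC1 the mutant exceeded the wild type by 1.06 with median ratios, 1.18 with quantile normalization and 1.65 with sums of 1000000, and the rescued strain exceeded the wild type by 1.57, 1.57 and 1.63. For CRR1 the mutant exceeded the wild type by 0.57, 0.97 and 1.18 in the same order, and the rescued strain exceeded the wild type by 0.38, 0.48 and 0.44. Between rescued strain and mutant, CRR1 differed by -0.19 (adjusted p 0.181) with median ratios, -0.48 (adjusted p 0.011) with quantile normalization and -0.73 (adjusted p 0.0010) with sums of 1000000. The direction of both genes against the wild type was thus the same on all 4 scales, and the size of the CRR1 rise in the mutant was not settled by these data. With sums of 1000000 the median of all tested genes also moved, from -0.13 to 0.49 for mutant against wild type and from 0.05 to -0.48 for rescued strain against mutant. On that scale the mutant had 2162 genes called higher and 79 called lower, against 523 and 545 as deposited. These are transcript levels, and protein levels of CRR1 were not analysed here.

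**Figure D5:**
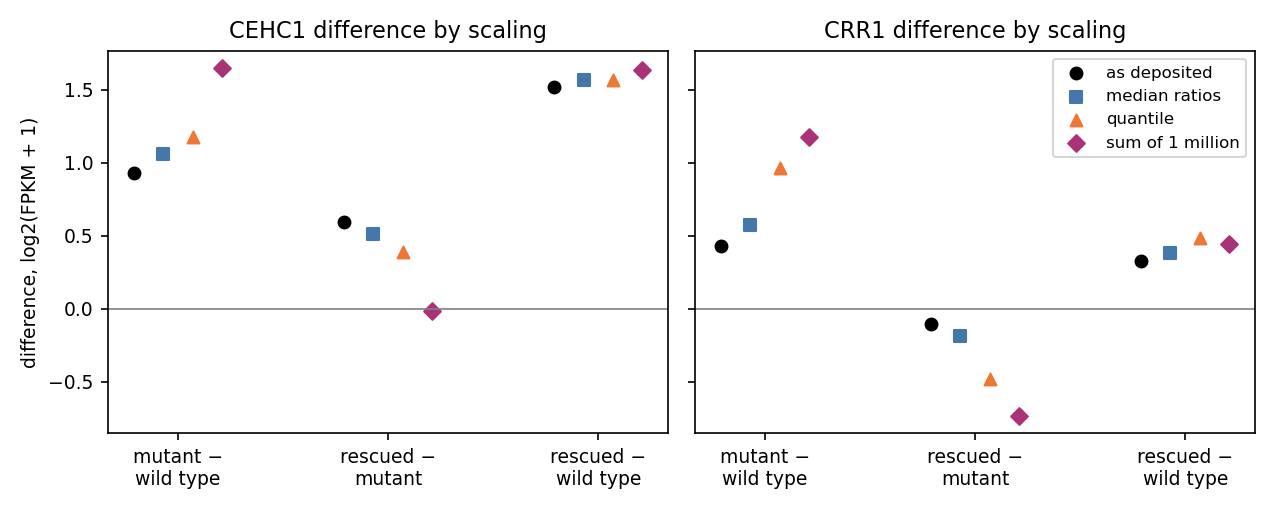
Difference between strains on the log2(FPKM + 1) scale for CEHC1 and CRR1, as deposited and after 3 rescalings (vertical axis), in the 3 comparisons named on the horizontal axis. Both genes lie above 0 against the wild type on all 4 scales, while the difference of rescued strain from mutant runs from 0.59 to -0.02 for CEHC1 and from -0.10 to -0.73 for CRR1.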

How the data were processed

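PolyA RNA of 9 cultures was sequenced with 125 bp paired-end reads, per the labels' protocols. The authors deposited FPKM per library and per strain. STAR 2.7.10b and Cuffdiff 2.0.2 are named in the submitters' processing notes, and neither genome build nor settings are given in the sources used here. Strains and replicate numbers came from the sample titles. The members and gene lists were chosen with earlier results of these data known. Named genes were CEHC1, CRR1, all list members and the 5 nearest profiles with a symbol for each of both genes. The lists were CRR1 targets, other copper-handling genes and regulators of other nutrient responses. No table with gene descriptions was used, so families by domain were not analysed here.

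FPKM are not counts. Low values gave no common step, since the most frequent ratio between libraries held 17.5% to 24.5% of genes under 0.15 FPKM within a tolerance of 5%. Depth is therefore unknown and no counting interval is given. The 11360 genes whose mean reached 1 FPKM were transformed to log2(FPKM + 1), a scale that understates changes of low genes, and fitted as group means over 9 libraries with limma 3.58.1 in R 4.3.3, with trended variance and Benjamini-Hochberg adjustment. Figures used matplotlib 3.10.9 in Python 3.11.15. In simulated data for mutant against wild type with 11360 genes, 98.5% of 200 genes changed by a log2 of 2 were recovered, with none of 11160 unchanged genes called. Smaller changes, such as those of CEHC1 and CRR1 in the mutant, were not simulated. Nor was a shift shared by most genes of a strain, so the simulation does not apply to those results. Alternatives were pseudocounts of 0.1 and 5, other minimum levels, 3 rescalings, other variance settings, 2 strains alone, the replicate number as a block, and each library left out.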

Additional observations from a re-analysis of the deposited data

How the results depend on the processing

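There were 20 alternatives, of which 9 left out 1 library. The differences of CEHC1 and CRR1 between mutant and wild type, and that of CEHC1 between rescued strain and wild type, kept direction and passed in all 20. For CEHC1 between rescued strain and mutant, sums of 1000000 gave -0.016. For CRR1 in that comparison, quantile normalization gave -0.48 and sums of 1000000 -0.73, both past the threshold. CRR1 between rescued strain and wild type stayed at 0.32 but missed the threshold with no minimum FPKM (adjusted p 0.054) and with the 2 strains alone (0.071). With the replicate number as a block it was also 0.32 (adjusted p 0.060). Same-numbered libraries of different strains deviated together with r of -0.13 to 0.16, and differently numbered ones with r of -0.26 to 0.19. Whether the numbers mark a shared batch was not tested. The replicate block changed no other call of both genes or count of targets.

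With 1 library left out, CEHC1 ranged from 0.80 to 1.01 (mutant against wild type), 0.55 to 0.63 (rescued against mutant) and 1.40 to 1.61 (rescued against wild type). CRR1 ranged from 0.37 to 0.49, -0.22 to -0.01 and 0.21 to 0.42 in the same order. The log2 ratio of CEHC1 to CRR1 ranged from 0.36 to 0.72, 0.63 to 0.86 and 1.09 to 1.45. The counts of CRR1 targets called were 7, 7 and 0 with each library left out. With sums of 1000000 they were 8, 8 and 0, and with a pseudocount of 5 they were 7, 6 and 0.

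Several small differences changed sign, and the cause was not tested. With median ratios, PSR1 in mutant against wild type became 0.018 and CCM1 in rescued against mutant -0.039. With quantile normalization, ATX1 (-0.12) and CCM1 (-0.085) in rescued against mutant and CYC6 in rescued against wild type (0.11) did so. With sums of 1000000, CTP2 (0.32), PCC1 (0.018) and PSR1 (0.48) in mutant against wild type, and ATX1 (-0.18), PSR1 (-0.26) and CCM1 (-0.55) in rescued against mutant did so. With 1 library left out, COX17 in mutant against wild type ranged from -0.027 to 0.26 and CCM1 in rescued against mutant from -0.071 to 0.10. In rescued against wild type, CYC6 ranged from -0.057 to 0.055 and CTR1 from -0.040 to 0.093. Over all genes, 1068 were called in mutant against wild type, with 433 at a pseudocount of 5, 1758 at 0.1, 631 at a minimum of 5 FPKM and 2241 with sums of 1000000. For rescued against mutant, 1043 became 550 at a pseudocount of 5 and 1865 with sums of 1000000. For rescued against wild type, 262 became 75, 606 and 154 under the first 3 of these settings.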
